A study of Mus musculus with 6 samples.

Results

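The genes described here are 32 cell cycle genes: 13 that act in S phase and DNA replication, 18 that act in mitosis, and the G1 cyclin gene Ccnd1. They were read from all probe sets of the deposited array table whose only gene symbol in the platform annotation is one of these names. That gave 72 probe sets for 31 genes, of 45037 probe sets and 18193 genes in all. No array value is given here for the mitotic cyclin gene Ccnb1, which enters the promoter counts only. Each gene is read from its probe set with the highest mean over the arrays, and sentences on a gene refer to that probe set unless they name others.

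The samples are 6 tumours of GLMT1 (GRS/A Lung Metastasis Tumor 1), a line from GRS/A mice, injected beneath the skin of the back. The hosts were male GRS/A mice, 3 wild type (WT) and 3 GRS/A-TgH(TnC) mice, which lack tenascin-C (TNKO), an extracellular matrix glycoprotein. Hosts were 8 weeks old at the start and are labelled as 10 weeks old. The same line was used in both hosts, so only the host differs in genotype, and nothing in the labels says that GLMT1 itself lacks Tnc. Each tumour was hybridised to 1 Affymetrix array, and the question is whether a host without tenascin-C alters the tumour's gene expression. Whole tumours were measured, so a change in the share of dividing cells and a change in RNA per dividing cell cannot be told apart.

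Cells pass through the cycle under cyclins bound to cyclin-dependent kinases. In G1, cyclins D and E release the E2F factors, which switch on genes for DNA replication. In G2 the B-Myb and FoxM1 factors, bound with the MuvB complex at the cell cycle homology region (CHR), switch on genes for mitosis, and NF-Y binds CCAAT boxes beside it. Transcripts of both sets are widely used as a measure of proliferation in tumours.

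The promoters show how the S phase and mitosis genes differ in sequence, independently of the arrays. RefSeq promoter windows (GRCm38.p6, 250 bases before to 50 after the start) were found for 24 of the 32 genes, in 25 windows, and both strands were searched. An E2F-type word (TTTCGCGC, TTTCCCGC, TTTGGCGC or TTTGCCGC) was in 5 of 12 windows of S phase genes, 1 of 13 windows of mitosis genes and 2.26% of all 32851 promoter windows. The CHR word TTTGAA was in 10 of 13 mitosis windows and 1 of 12 S phase windows, that of Mcm2, against 17.9% of all windows. CCAAT was in 12 of 13 mitosis and 8 of 12 S phase windows, against 37.4% of all. E2F-type words can overlap each other on opposite strands, as in Mcm5, and can overlap CCAAT, as in Mcm7. Such a match describes the letters and does not show a factor bound there.

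The windows of 2 S phase genes and 3 mitosis genes are shown from 250 bases before to 30 after the start, to show this split and, in Cdk1, an exception to it. Capitals mark E2F-type words, TTTGAA and CCAAT or their reverse complements.
Mcm5 promoter, chr8:75109259-75109538, plus strand: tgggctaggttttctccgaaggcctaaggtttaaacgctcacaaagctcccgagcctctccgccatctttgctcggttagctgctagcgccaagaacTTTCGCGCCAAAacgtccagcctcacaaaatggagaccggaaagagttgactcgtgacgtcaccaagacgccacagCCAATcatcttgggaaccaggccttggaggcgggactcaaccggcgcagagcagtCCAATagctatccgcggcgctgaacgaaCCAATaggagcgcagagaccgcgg
Mcm7 promoter, chr5:138171854-138172133, minus strand: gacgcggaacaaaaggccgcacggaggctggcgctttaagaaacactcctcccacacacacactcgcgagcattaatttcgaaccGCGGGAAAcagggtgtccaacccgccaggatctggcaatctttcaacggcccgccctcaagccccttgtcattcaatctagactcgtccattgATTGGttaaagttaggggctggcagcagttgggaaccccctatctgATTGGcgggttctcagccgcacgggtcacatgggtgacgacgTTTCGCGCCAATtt
Cdk1 promoter, chr10:69352883-69353162, minus strand: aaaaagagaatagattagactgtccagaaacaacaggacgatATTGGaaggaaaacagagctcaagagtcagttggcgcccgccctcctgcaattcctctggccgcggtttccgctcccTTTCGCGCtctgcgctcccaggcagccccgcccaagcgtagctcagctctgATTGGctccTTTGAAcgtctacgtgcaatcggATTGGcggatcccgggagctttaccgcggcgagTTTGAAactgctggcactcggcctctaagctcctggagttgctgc
Mki67 promoter, chr7:135716350-135716629, minus strand: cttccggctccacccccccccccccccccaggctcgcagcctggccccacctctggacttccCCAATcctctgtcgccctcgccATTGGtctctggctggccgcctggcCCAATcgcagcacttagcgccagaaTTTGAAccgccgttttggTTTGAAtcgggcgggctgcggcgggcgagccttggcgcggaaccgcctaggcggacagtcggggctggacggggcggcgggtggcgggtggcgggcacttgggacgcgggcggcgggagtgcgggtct
Cdc20 promoter, chr4:118437314-118437593, minus strand: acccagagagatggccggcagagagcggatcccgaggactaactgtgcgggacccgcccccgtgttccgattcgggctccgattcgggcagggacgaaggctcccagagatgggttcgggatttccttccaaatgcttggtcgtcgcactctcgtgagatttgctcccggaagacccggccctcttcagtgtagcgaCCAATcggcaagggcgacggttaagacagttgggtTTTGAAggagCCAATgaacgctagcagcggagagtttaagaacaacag
The Mcm5 window holds a pair of E2F-type words on opposite strands that share letters, at positions -153 and -149 from the start, and no CHR word. In Mcm7, which has 2 windows, an E2F-type word at base 17 after the start in the window shown runs into a CCAAT box. That window was printed because it holds more E2F-type and CHR words. The other Mcm7 window holds 0 E2F-type words and 0 CHR words. Mki67 and Cdc20 hold CHR words, 2 in Mki67 and 1 in Cdc20, but no E2F-type word. Cdk1 was the only mitosis gene of the 13 with both, an E2F-type word at position -131 and CHR words at -71 and -15.

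The deposited values hardly differ between arrays. The median probe set spanned 5.46 microunits over the 6 arrays, where 1 microunit is 1e-06 of a deposited log2 unit, so a difference here cannot be read as a fold change. Levels are given in log2 units, and values per tumour in microunits from the gene's own mean over the 6 tumours. Brightness depends on the probes, so levels of different genes are not ranked. The array medians of 5 tumours lay at -473 to -293 microunits from the mean of the 6 medians and that of TNKO tumour 3 at 1930. The same tumour stood apart in hair follicle genes, with a mean log2 level over the 9 measured of 7.96, against 6.43 to 6.48 in the other tumours. The luminal epithelial keratin genes Krt8 and Krt18 stood at log2 levels of 11.45 and 8.92, while Krt19 (6.07) and Epcam (7.04) were under 7.09, the median over all genes.

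Of the 31 genes 30 lay above that median level, which, as levels depend on the probes, does not rank them. Mki67, the gene of the Ki-67 proliferation antigen, stood at 10.63, the topoisomerase gene Top2a at 11.00 and Pcna, the sliding clamp of DNA polymerase, at 11.19. Only Tyms, thymidylate synthase, lay below it, at 6.34, and 0 of its 4 probe sets were above the median of all probe sets.

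Against the host genotype, 25 of the 31 genes had a higher mean in TNKO hosts and 6 a lower one, with the values as deposited, but 0 passed the test, and after quantile normalization or subtraction of array medians 31 of 31 were lower. Over all genes 57.6% had a higher TNKO mean as deposited, 1.8% with quantile normalization and 1.3% with medians subtracted, so these scalings turn nearly all genes alike. The test was limma's moderated test with Benjamini-Hochberg adjustment over all 45037 probe sets at 0.05, which called 0.175% of probe sets and 0.121% of genes. At an unadjusted p under 0.05 there were 5 members, all higher in TNKO hosts, Foxm1, Mki67, Ccna2, Bub1b and Mcm7, which is 5 of 31 beside 18.4% of all genes in either direction and 9.99% in this one. These same 5 were the members whose 3 TNKO values all lay above the 3 WT values, as did 15% of all genes, and no member lay wholly below, as did 11.1%. The share of members at the unadjusted threshold was therefore near that of all genes. Without TNKO tumour 3 the unadjusted count was 13, all higher (18.1% of all genes, 10.5% higher). That tumour was the lowest array in 12 of the 31, so leaving it out raises the TNKO means of those genes. Without WT tumour 3 or TNKO tumour 2 the unadjusted count was 3 (13.5% and 14.1% of all genes). Without those last 2 tumours in turn, 12 and 11 genes were lower in place of 6.

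**Figure D1:**
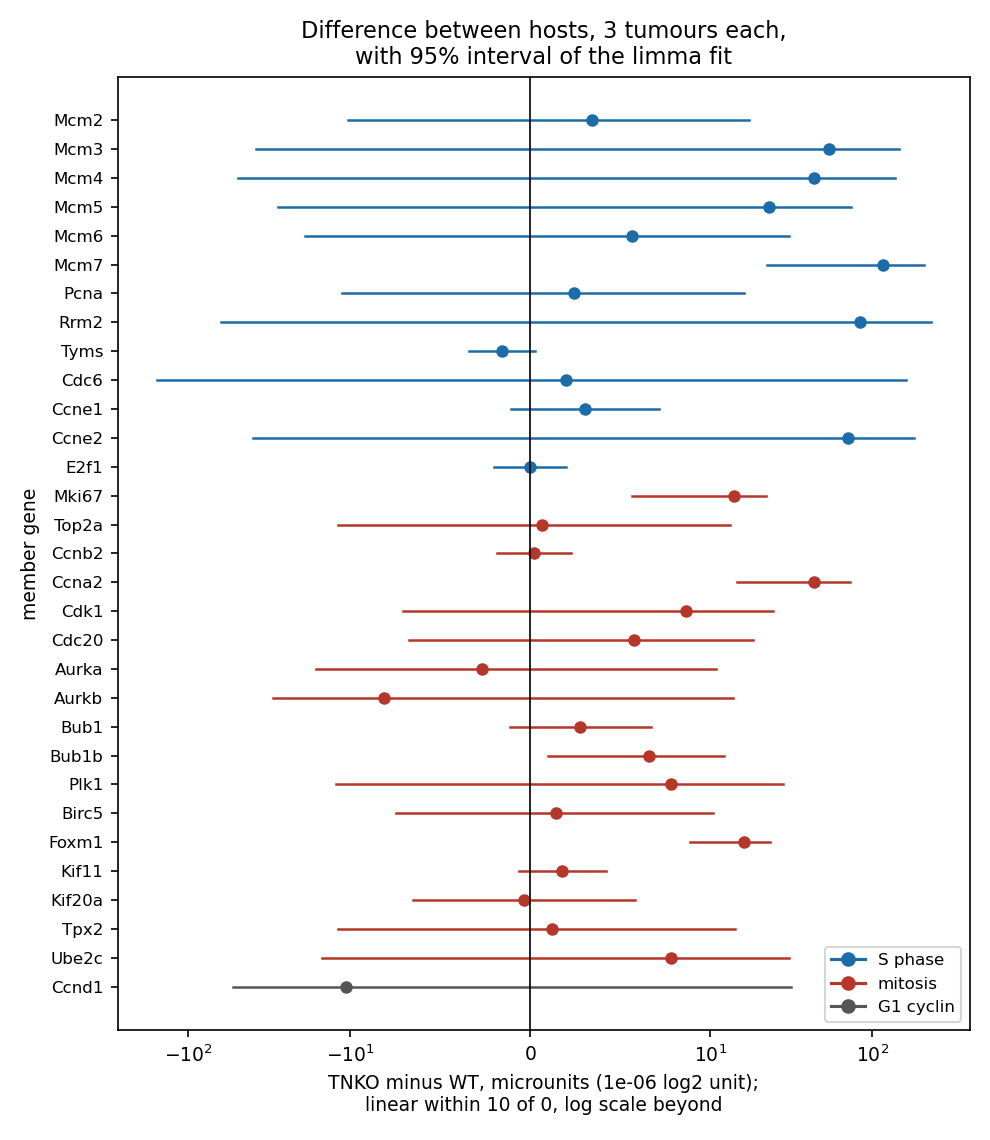
The x axis gives the TNKO minus WT difference in microunits for the brightest probe set of each of the 31 genes, linear within 10 of 0 and logarithmic beyond, with the 95% interval of the limma fit before adjustment for multiple testing. The intervals of Mcm7, Mki67, Ccna2, Bub1b and Foxm1 lie above 0, and none of these passed adjustment.

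Spike-in control probe sets for the hybridisation, which read bacterial and phage transcripts, moved with these differences. Of 18 such probe sets 18 were higher in TNKO hosts as deposited, by 0.173 to 61.4 microunits, while 14 were lower and 0 higher with quantile normalization and 18 lower with medians subtracted. As deposited, 16 had all 3 TNKO values above all WT values. In 18 of the 18 the top array was TNKO tumour 2, and in 12 the bottom array was WT tumour 3. Their median deviation was -6.75, -7.1 and -11.2 microunits in WT tumours 1 to 3 and 4.34, 18.4 and 3.81 in TNKO tumours 1 to 3. Probe sets for the 5′ and 3′ ends of mouse control genes went the other way: as deposited 4 of 5 of each were lower in TNKO hosts, with medians of -11.7 and -1.22 microunits, and in 4 of 5 of each the top array was WT tumour 3. With quantile normalization 4 of 5 of the first and 2 of 5 of the second were lower. The part of hybridisation and RNA quality in the differences of the cell cycle genes was not tested.

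Foxm1 encodes the transcription factor that drives mitotic genes in G2, and among the 31 genes its brightest probe set had the smallest p. WT tumours 1 to 3 stood at -10.7, -7.77 and -5.53 microunits and TNKO tumours 1 to 3 at 8.33, 12.1 and 3.59. The groups did not overlap, with TNKO tumour 3 the nearest to the WT tumours. The difference was 16 microunits (SE 2.71, 95% interval 8.86 to 23.2, n = 3 each), or 4.53 residual SDs, the SD within the groups, with an adjusted p of 0.0956 by limma. The 4 Foxm1 probe sets stood at log2 levels of 7.26 (the brightest), 7.23, 7.09 and 5.76, beside the median of 7.09 over all genes. All 4 had a higher TNKO mean as deposited, by 3.66 to 20.8 microunits. The probe set with a difference of 14.8 had a limma adjusted p of 0.0702. It is of the _x_at kind, whose probes can match further transcripts. Those at 20.8 and 3.66 overlapped between groups, with limma adjusted p of 0.689 and 0.458. With the mean over the Foxm1 probe sets the unadjusted limma p was 0.103.

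In Mki67, too, each TNKO tumour lay above each WT tumour. WT tumours stood at -4.34, -7.27 and -9.17 microunits and TNKO tumours at 7.38, 11.9 and 1.52. The WT tumours spread less (SD 2.43) than the TNKO tumours (SD 5.2). The difference was 13.9 microunits (SE 3.1) with an adjusted p of 0.127 by limma.

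Ccna2 encodes cyclin A2, which partners CDK2 in S phase and CDK1 on entry to mitosis. Its WT tumours lay close together at -24.3, -20.7 and -20.7 microunits, while TNKO tumours stood at 22.9, 41.7 and 1.05. The TNKO tumours varied far more (SD 20.3) than the WT tumours (SD 2.12). The difference was 43.8 microunits (SE 11, limma adjusted p = 0.148), and both probe sets were higher in TNKO hosts as deposited.

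Bub1b encodes BubR1, a kinase of the spindle checkpoint that delays anaphase until chromosomes are attached. Its values were -3.05, -4.8 and -2.02 microunits in WT tumours and 4.14, 6.44 and -0.7 in TNKO tumours. The groups did not overlap, but TNKO tumour 3 lay closer to WT tumour 3 than to the other TNKO tumours. The difference was 6.58 microunits (SE 2.12, limma adjusted p = 0.201), in the same direction in all 3 of its probe sets. In the dimmer Bub1b probe sets the groups overlapped. Their differences were 20.2 (95% interval -8.75 to 49.1) and 0.18 (95% interval -2.19 to 2.55). The partner gene Bub1 overlapped between groups, with a difference of 2.77 (95% interval -1.16 to 6.7), and its dimmer probe set differed by -0.998.

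**Figure D2:**
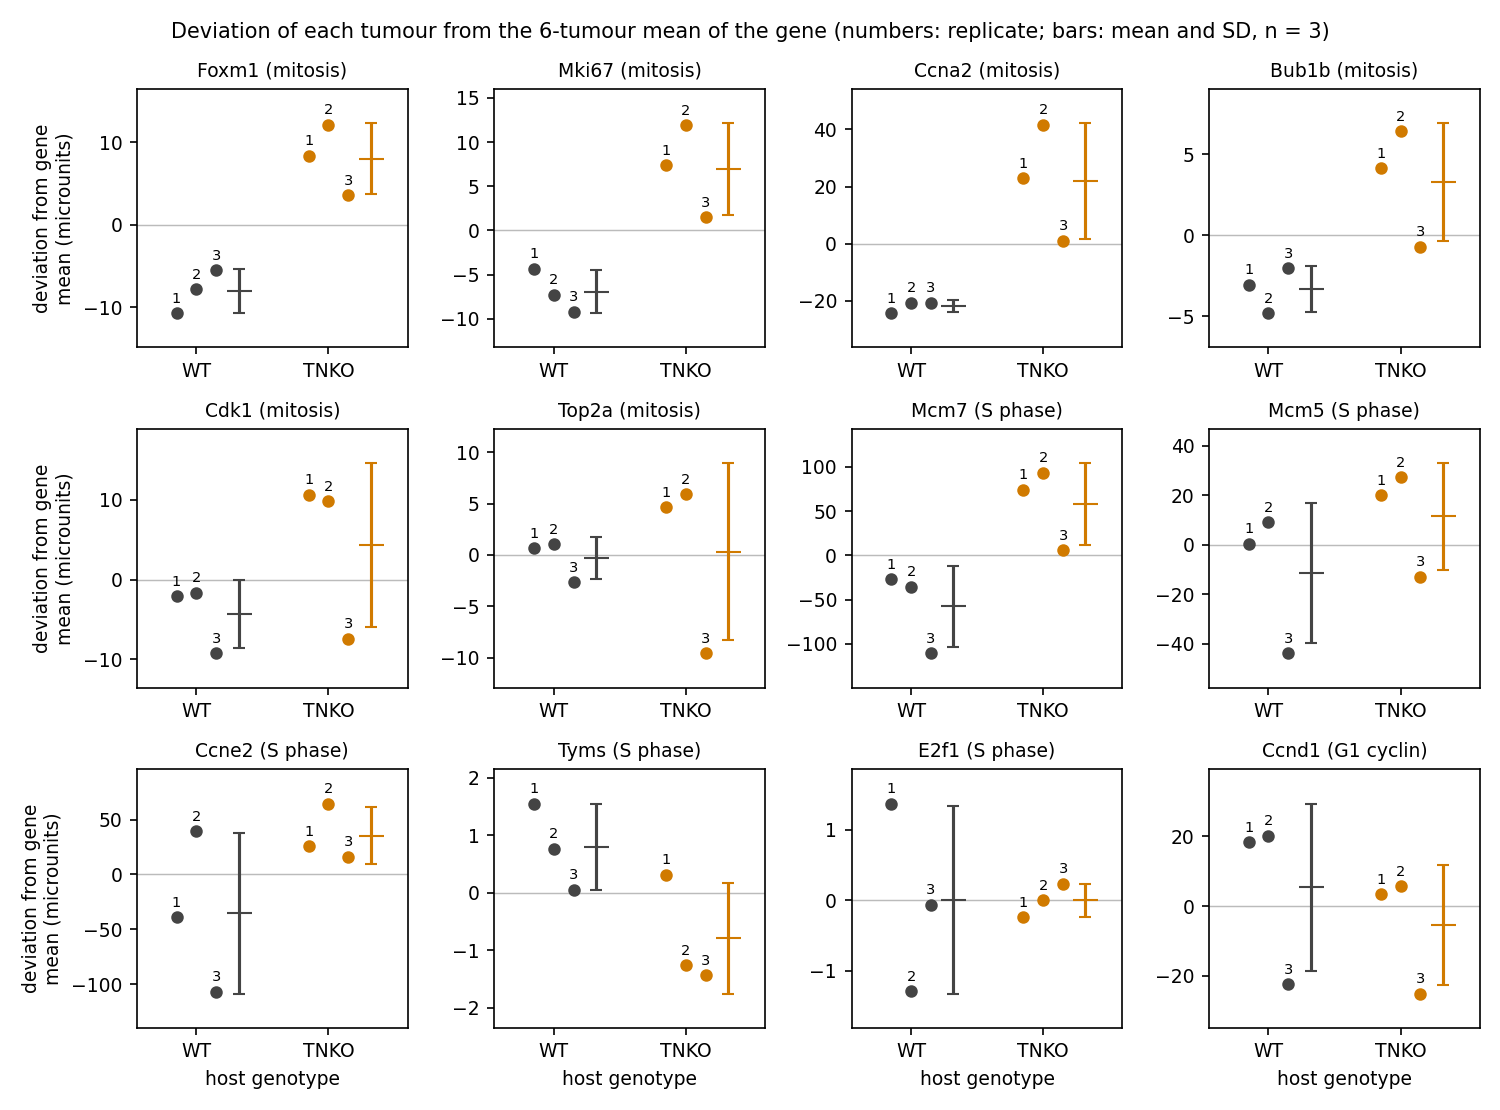
Points give each tumour's deviation from the gene's 6-tumour mean in microunits, by host genotype, with the replicate number beside the point and the group mean and SD (n = 3) as a bar. In Foxm1, Mki67, Ccna2, Bub1b and Mcm7 the groups do not overlap, while in Top2a TNKO tumours 1 and 2 are the 2 highest and TNKO tumour 3 the lowest. The 12 genes are 8 of the 9 described in full, all but Ccne1, and Cdk1, Top2a, Mcm5 and E2f1.

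The other mitosis genes showed a split inside the TNKO group. TNKO tumours 1 and 2 were the 2 highest arrays in 13 of the 17 mitosis genes, beside 15.2% of all genes, and the exceptions were Aurka, Aurkb, Ccnb2 and Tpx2. TNKO tumour 2 was the highest in 12 (20.6% of all genes) and TNKO tumour 1 in 5 (19.8%). TNKO tumour 3 was the lowest array in 10, beside 17.8% of all genes, and the highest in 0. These were Top2a, the cyclin gene Ccnb2, the kinase genes Aurka, Aurkb and Plk1, the anaphase-promoting complex activator Cdc20 and its ubiquitin-conjugating enzyme Ube2c, the survivin gene Birc5, the spindle factor Tpx2 and the kinesin gene Kif20a. Positions of arrays were counted with the values as deposited, and the counts are a description.

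Plk1, a kinase that acts from mitotic entry to cytokinesis, gives an example. WT tumours stood at -1.54, -6.06 and -4.1 microunits, TNKO tumours 1 and 2 at 13.6 and 10.2, and TNKO tumour 3 at -12. The WT values lay between those of TNKO tumour 3 and the other TNKO tumours. The difference of the means was 7.8 microunits with a 95% interval of -12.3 to 27.9.

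Cdc20 had the same shape, at -1.92, -3.55 and -3.14 in WT tumours and 7.39, 8.35 and -7.16 in TNKO tumours. Ube2c stood at -9.72, -2.79 and 0.763 in WT tumours and at 14.6, 10.3 and -13.2 in TNKO tumours. Cdk1, the kinase of mitotic entry, ranged from -9.24 to -1.65 in WT tumours, a range that held TNKO tumour 3 (-7.4) while TNKO tumours 1 and 2 stood above it (10.6 and 9.78). Of the 3 Cdc20 probe sets only the brightest was higher in TNKO hosts as deposited, and likewise for Kif11. For these and the remaining mitosis genes the limma adjusted p ran from 0.361 for Kif11, the kinesin that separates spindle poles, to 0.964 for Top2a. Aurkb, the kinase of the chromosomal passenger complex, differed by -8.11 microunits (95% interval -29.9 to 13.7), Aurka by -2.71 and Kif20a by -0.353, the 3 mitosis genes with lower TNKO means. Without TNKO tumour 3, 11 of the 17 mitosis genes had an unadjusted p under 0.05 and 16 were higher, but 0 passed adjustment. Over all genes 18.1% reached that p (10.5% higher) and 58.1% had a higher mean. As this tumour was the lowest array in 10 of the 17, leaving it out raises the TNKO means of those genes. Without TNKO tumour 2, 10 of the 17 were higher.

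**Figure D3:**
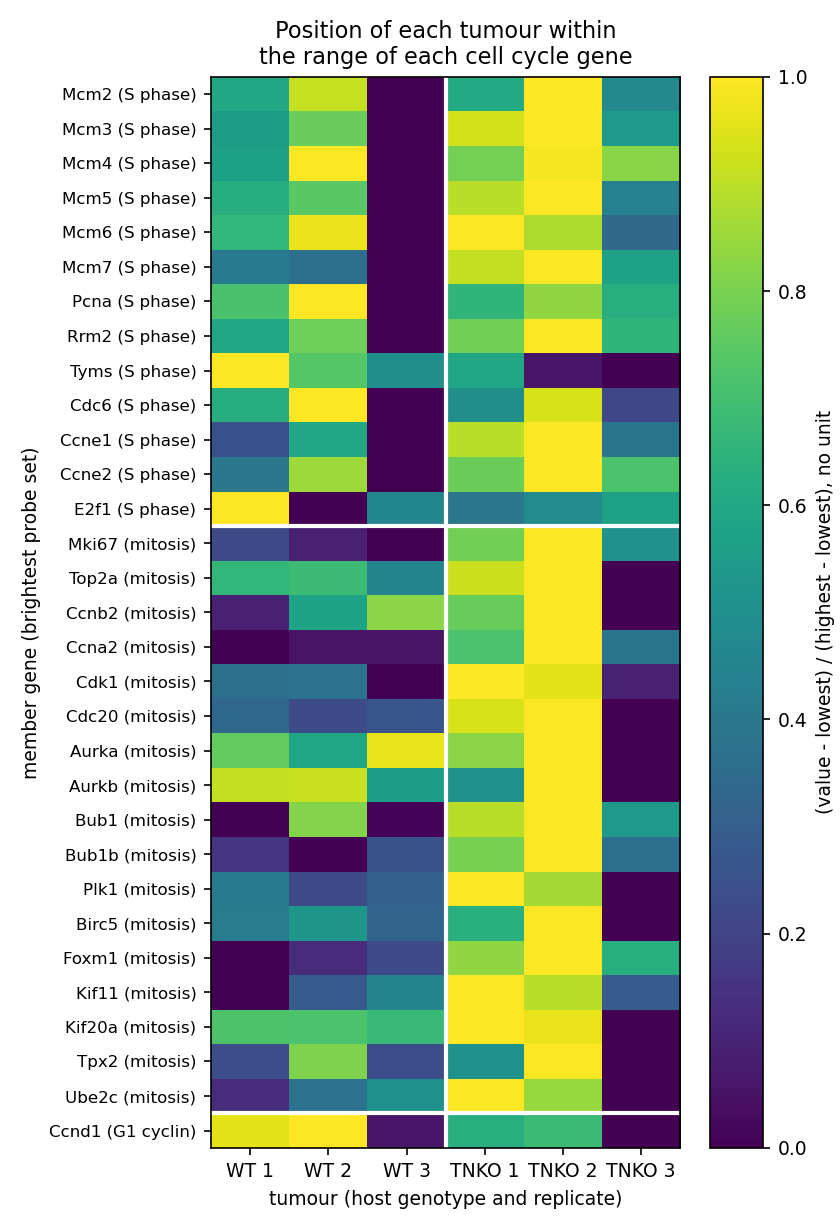
Each cell shows where a tumour lies between the lowest (0) and the highest (1) value of a gene, for 31 genes in rows and 6 tumours in columns, with white lines between host genotypes and between classes of genes. TNKO tumour 3 is at 0 in 10 of 17 mitosis genes and WT tumour 3 at 0 in 11 of 13 S phase genes.

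Markers of other cell types also differed between these arrays. TNKO tumours 1 and 2 were also the 2 highest arrays in 6 of 6 measured adipocyte markers, and the mean log2 level of the list was 7.09 and 7.01 in them, 6.77 in TNKO tumour 3 and 6.58 to 6.85 in WT tumours. Skeletal muscle markers were lowest in TNKO tumour 1 in 8 of 10 and in TNKO tumour 2 in the remaining 2, with mean log2 levels of 6.45 and 6.52, and the other 4 tumours lay between 6.90 and 7.06. Hair follicle markers, a tissue whose matrix cells divide, were highest in TNKO tumour 3 in 9 of 9, the tumour in which most mitosis genes were lowest. The top array was TNKO tumour 1 in 6 of 6 endothelial and 4 of 5 neutrophil markers, whose mean log2 levels were 7.20 and 6.99 in each of the 6 tumours. As deposited, the TNKO values of the neutrophil genes Mmp8, Csf3r and Elane all lay above the WT values, as did 15% of all genes. Their unadjusted p was under 0.05, beside 9.99% of all genes in this direction. In S100a8 and S100a9 the groups overlapped, and 0 of the 5 passed adjustment by limma. T cell and NK cell markers lay below the median gene level in 6 of 6. The part of these cell types in the cell cycle values was not tested.

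Among the S phase genes it was WT tumour 3 that stood low. It was the lowest array in 11 of 13, beside 21.6% of all genes, the exceptions being Tyms and E2f1. The genes include the 6 subunits of the MCM2-7 helicase, which unwinds DNA at the fork, the loading factor gene Cdc6, the cyclin E genes Ccne1 and Ccne2, and Rrm2, a subunit of ribonucleotide reductase. The top array was TNKO tumour 2 in 7 of the 13, and TNKO tumour 3 was the lowest in 1, Tyms. S phase genes also varied more between arrays in deposited units. Their median span was 71.1 microunits, that of mitosis genes 15.5 and that of all genes 5.73.

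Mcm7 had the smallest p among S phase genes. WT tumours stood at -27.1, -35.6 and -111 microunits and TNKO tumours at 74.4, 93.3 and 5.52. WT tumour 3 lay far below the other WT tumours, yet the groups did not overlap. The difference was 116 microunits (SE 35.2, 95% interval 22.5 to 209), or 2.51 residual SDs, with a limma adjusted p of 0.188, and 4 of 4 probe sets were higher as deposited. All 6 MCM genes had a higher TNKO mean as deposited, as did 17 of their 19 probe sets (54.4% of all probe sets), the exceptions being 1 each of Mcm3 and Mcm6.

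In the brightest probe sets of the other MCM genes the groups overlapped. Mcm5 stood at 0.477, 8.99 and -43.8 in WT tumours and 19.9, 27.3 and -12.9 in TNKO tumours. Mcm3 stood at -12.2, 19 and -87.1 in WT tumours and at 42, 50.7 and -12.3 in TNKO tumours. Differences over Mcm2 to Mcm6 ran from 3.43 microunits for Mcm2 to 53.6 for Mcm3, each with a 95% interval across 0. In a single dimmer probe set of each of Mcm2, Mcm3 and Mcm5 all TNKO values lay above all WT values as deposited, as did 15% of all genes. Their differences were 165 (SE 68), 99.7 (SE 38.7) and 148 (SE 62.5) microunits, with limma adjusted p of 0.276, 0.255 and 0.285. The other dimmer probe sets of Mcm3 and Mcm5, and those of Mcm4 and Mcm6, overlapped between groups. Among them were differences of -3.32 in Mcm3 and 0.0437 in Mcm5.

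Ccne2, one of the cyclins that start S phase, stood at -38.9, 39.5 and -107 microunits in WT tumours and 25.7, 64.5 and 16 in TNKO tumours. WT tumour 2 lay among the TNKO tumours, and the difference of 70.8 (SE 41.8) had a limma adjusted p of 0.418. Its relative Ccne1 stood at -1.72, 0.5 and -3.34 in WT tumours and 2.39, 3.05 and -0.881 in TNKO tumours, a difference of 3.04 (SE 1.55, limma adjusted p = 0.359). In both genes WT tumour 3 was lowest and TNKO tumour 2 highest.

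Tyms, which makes thymidylate, went the other way, at 1.55, 0.764 and 0.0545 in WT tumours and 0.318, -1.26 and -1.43 in TNKO tumours. TNKO tumour 1 lay among the WT tumours. The difference was -1.58 microunits (SE 0.69, limma adjusted p = 0.298), and the other 3 of its 4 probe sets had higher TNKO means as deposited. E2f1, the factor upstream of many of these genes, differed by -0.00567 microunits (95% interval -2.01 to 2), and Pcna by 2.43 (95% interval -11.2 to 16.1). Rrm2 and Cdc6 spanned more, 233 and 179 microunits over the 6 arrays, with differences of 83.5 and 1.96. The other Rrm2 probe sets differed by 20.8 and -52.9. Without WT tumour 3, 7 of the 13 S phase genes were higher in TNKO hosts, in place of 11. Without TNKO tumour 2 it was 10. In each of these fits 0 had an unadjusted p under 0.05, in place of 1, beside 13.5% and 14.1% of all genes. Most markers of stromal cells were low in WT tumour 3. It was the lowest array in 5 of 6 fibroblast and 5 of 6 endothelial markers, beside 21.6% of all genes. The remaining fibroblast marker, Dcn, was highest in it. WT tumour 3 was also the lowest array in 6 of 6 adipocyte and 6 of 9 hair follicle markers. The part of these cell types in the S phase values was not tested.

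**Figure D4:**
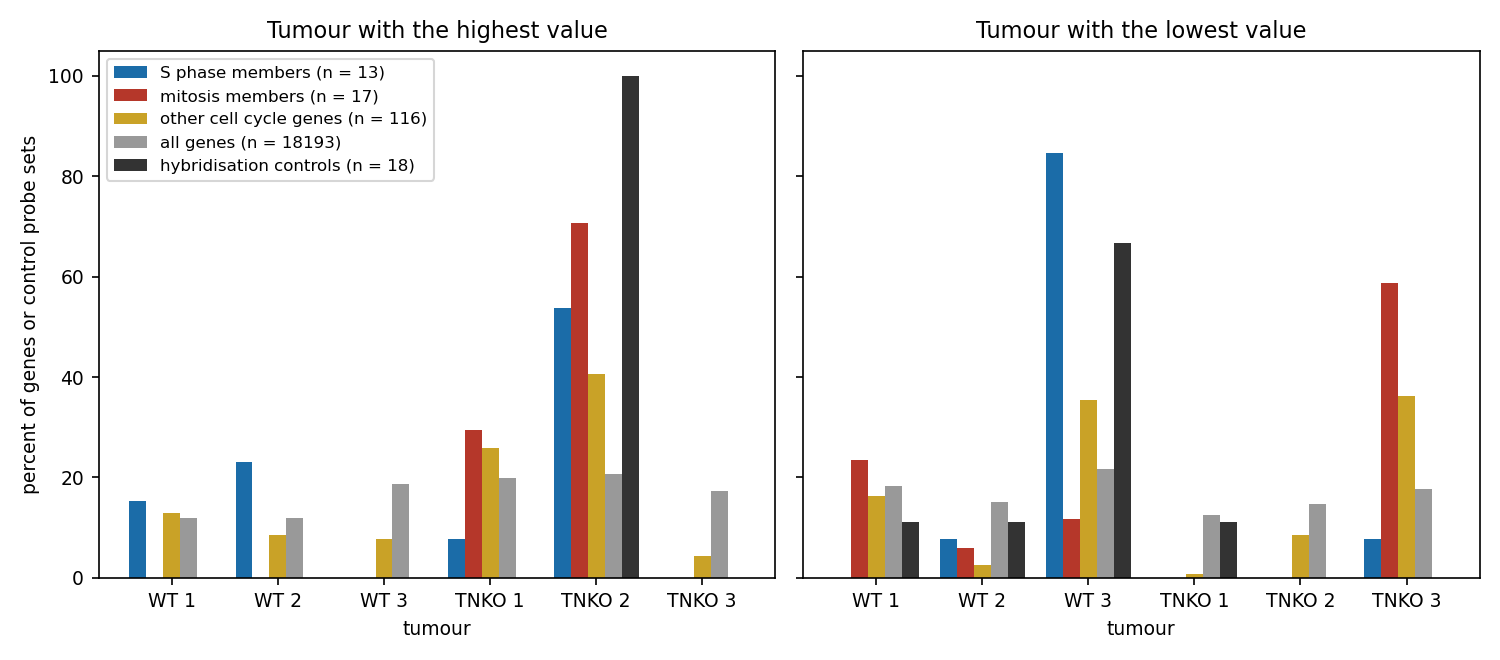
Bars give the percent of genes, or of hybridisation control probe sets, for which each tumour had the highest (left) or lowest (right) value, for S phase genes, mitosis genes, the other cell cycle genes, all genes and the controls. S phase genes and controls are most often lowest in WT tumour 3, mitosis genes in TNKO tumour 3, and both gene classes and the controls are most often highest in TNKO tumour 2.

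Ccnd1, whose cyclin D1 carries growth factor signals into the cycle, followed neither class. WT tumours stood at 18.2, 20.1 and -22.4 microunits and TNKO tumours at 3.46, 5.74 and -25.1. Tumour 3 of each host was low, and the groups overlapped. The difference was -10.6 (SE 15.9, limma adjusted p = 0.766). Its 3 probe sets differed in direction as deposited, at -10.6, 126 and -338 microunits, and in the last all TNKO values lay below the WT values (limma adjusted p = 0.27).

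Probe sets of other members disagreed too. Of 21 genes with several probe sets, 10 were higher in all of them, 2 (Aurka and Aurkb) lower in all, and 9 mixed, with the values as deposited. Over probe sets, 28 of 34 of S phase genes and 25 of 35 of mitosis genes had a higher TNKO mean. A dim probe set of Tpx2, at a log2 level of 6.39, had the smallest p of all 72, with a difference of 12.5 microunits (limma adjusted p = 0.067), while the brightest differed by 1.18 (limma adjusted p = 0.928). Of the 31 genes 9 were read from probe sets of the _s_at or _x_at kind, whose probes can match further transcripts, 7 of them S phase genes.

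A further 116 cell cycle genes, of 122 listed by role, were measured. As deposited 80 were higher and 36 lower in TNKO hosts, 0 passed adjustment by limma, and 13 higher and 6 lower had an unadjusted p under 0.05. Over all genes 57.6% were higher as deposited, and at the unadjusted threshold 9.99% were higher and 8.43% lower. Under quantile normalization or subtraction of medians 0 were higher, where 1.8% and 1.3% of all genes were. Genes that license and fire replication origins were higher in 15 of 15 as deposited, with a median of 6.69 microunits. Orc1, the largest subunit of the origin recognition complex, stood at -27, -13.1 and -14.3 in WT tumours and 18, 21.7 and 14.7 in TNKO tumours. Its groups were well apart, with a difference of 36.3 (SE 4.59), or 6.04 residual SDs, and a limma adjusted p of 0.0714. The helicase gene Recql4 differed by 9.51 (limma adjusted p = 0.193). Orc1 and Recql4 were read at log2 levels of 6.73 and 6.65, under the median of 7.09 over all genes. WT tumour 3 was the lowest array in 10 of the 15 genes, beside 21.6% of all genes.

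As deposited, genes of DNA synthesis and nucleotide supply were higher in 15 of 23, beside 57.6% of all genes. WT tumour 3 was the lowest array in 14, beside 21.6% of all genes. Rpa3, a subunit of the single-strand binding protein RPA, differed by 43.6 microunits (limma adjusted p = 0.0994). Dut, which removes dUTP, differed by -9.6 (limma adjusted p = 0.0761). Kinetochore, spindle and checkpoint genes were higher in 21 of 28 as deposited, and TNKO tumour 3 was the lowest array in 18 of them (17.8% of all genes). Mad2l1, a spindle checkpoint gene, differed by 26.2 (limma adjusted p = 0.104) and the kinesin gene Kif2c by 0.979 (limma adjusted p = 0.225). Mitotic exit, condensation and cytokinesis genes were higher in 14 of 19 as deposited, with Aspm, a spindle pole gene, at 19.2 (limma adjusted p = 0.181) and Fzr1, an activator of the anaphase-promoting complex, at -14.2 (limma adjusted p = 0.153).

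**Figure D5:**
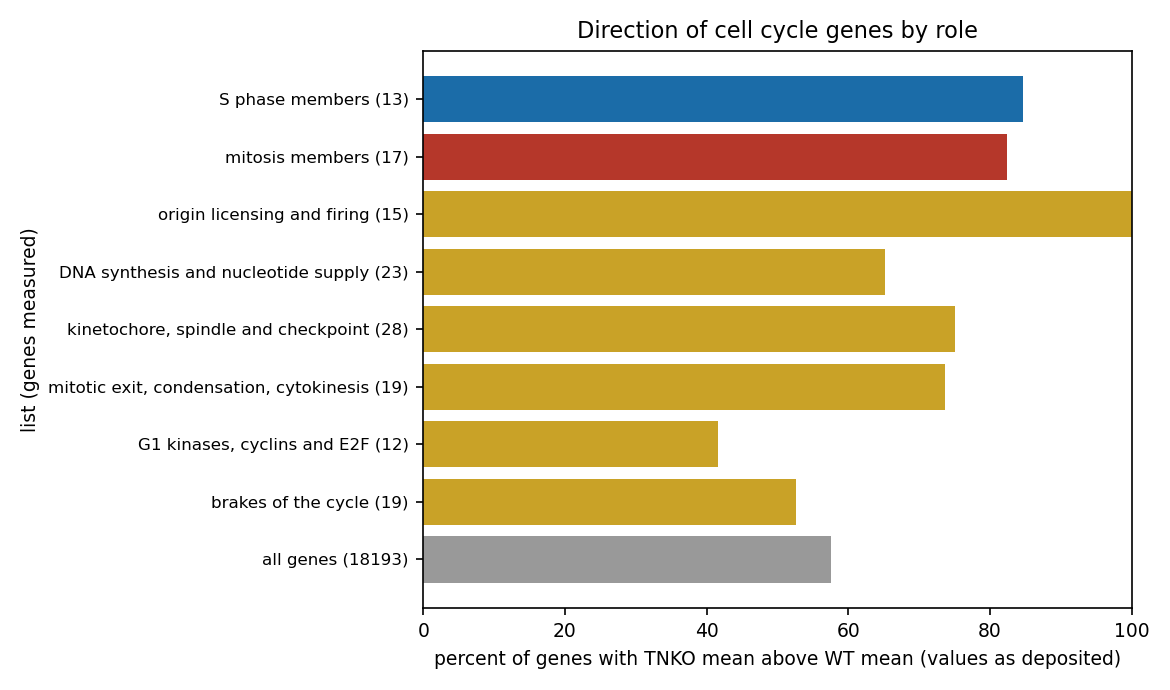
Bars give the percent of genes with a higher mean in TNKO than in WT hosts, with the values as deposited, for the 2 member classes, 6 lists of other cell cycle genes and all genes, with the genes measured in brackets. Origin licensing genes are higher in 15 of 15, G1 kinases, cyclins and E2F genes in 5 of 12, and all genes in 57.6%.

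G1 kinases, cyclins and E2F genes were higher in 5 of 12 as deposited, with E2f3 at -6.87 (limma adjusted p = 0.282) and the phosphatase gene Cdc25a at -0.871 (limma adjusted p = 0.279). Brakes of the cycle were higher in 10 of 19 as deposited (57.6% of all genes). Among these, Gadd45a, a p53 and stress target that halts cells in G2, stood at 198, 340 and 345 microunits in WT tumours and -326, -400 and -157 in TNKO tumours. Its groups did not overlap, with a difference of -589 microunits (SE 80.9), or -5.55 residual SDs, and a limma adjusted p of 0.0758. Cdkn2d, an inhibitor of CDK4 and CDK6, stood at 15.3, 13.5 and 31.3 in WT tumours and -13, -21.7 and -25.5 in TNKO tumours, a difference of -40.1 (SE 6.33, limma adjusted p = 0.0874). At an unadjusted p under 0.05, 4 of these 19 were lower, Gadd45a, Cdkn2d, the pocket protein gene Rbl2 (-1.52) and Mdm2 (-23.9), and 1 was higher, E2f4 (1.71), beside 8.43% and 9.99% of all genes. Mdm2 is itself no brake: its protein marks p53 for degradation. These last 3 were named after their values were seen.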

How the data were processed

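RNA of 6 tumours, 3 per host genotype, was measured on 1-colour arrays from 100 ng of total RNA. For each array the deposited table gives processed values of 45101 probe sets, taken as log2 from their range. The submitters' processing notes name R 2.7.2. How the authors summarized and scaled the values, and the log base, is not given in the sources used here. Symbols came from the platform annotation of 2016: 34945 of 45037 probe sets had 1 symbol, 932 several and 9160 none, after 64 controls were left out. TNKO minus WT was tested with limma 3.58.1 in R 4.3.3 (lmFit, eBayes, two-sided), all probe sets in 1 fit; SEs and intervals are moderated, residual SDs are not. Tumours were not paired by number. The members and lists were chosen with earlier results of these data known. The 4 S phase and 4 mitosis genes with the smallest p, Ccnd1 and Mki67 were described in full; of each other list the 2 genes with the smallest p were named. Other genes with values, and the promoters printed, were chosen after their values were seen. The number of arrays limits the precision. Each pair of arrays shared 21 to 43 identical values, so none was taken as a copy. The fit was repeated with each array left out, with a replicate block, with a trended or robust eBayes, on quantile-normalized or median-centred arrays, after adding 16 on the linear scale, on the brighter probe sets alone, and on gene means over probe sets. The fit was tested on simulated data.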

Additional observations from a re-analysis of the deposited data

How the results depend on the processing

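Over 14 alternatives, 0 member genes, 0 member probe sets (where tested) and 0 other cell cycle genes passed limma's threshold in each. From 0 to 13 members had an unadjusted p under 0.05, beside 0.357% to 22.9% of all genes. After quantile normalization 0 members were higher and 31 lower, and the differences were -681 microunits for Mcm7, -872 for Ccne1, -388 for Ccne2, -1060 for Foxm1, -1270 for Mki67, -627 for Ccna2 and -1080 for Bub1b. After subtraction of array medians 0 were higher and 31 lower, and the same genes differed by -648, -761, -693, -748, -750, -720 and -757 microunits. These scalings moved the median difference of all genes from 0.2 to -560 and -764 microunits. Relative to that median, 24 of 31 members lay above as deposited and 9 with quantile normalization. With medians subtracted it was again 24. That count was fixed in advance, as subtraction shifts the difference of every gene by the same amount. Leaving out 1 array gave 19 to 27 members higher and 4 to 12 lower. Over all probe sets limma called 79 as deposited, 0 after quantile normalization (591 at an unadjusted p under 0.05), 285 of the probe sets above the median level, 0 with a replicate block (7816 unadjusted), and 0 to 73 with 1 array left out. The replicate block left 8 members at an unadjusted p under 0.05, 7 of them higher, beside 16.3% of all genes (9.15% higher). Same-numbered tumours correlated at 0.029, -0.016 and 0.005, and those of different number at -0.079 to 0.072. These values show no pairing by number, but with 3 tumours per host they cannot exclude it. With the mean over a gene's probe sets, 22 members were higher, beside 54.5% of all genes. Of the members 2 had an unadjusted p under 0.05, both higher, beside 22.9% of all genes (9.81% higher). An offset of 16 left 25 members higher and 6 lower. An eBayes trend and robust eBayes gave the same counts, which were fixed in advance, as they change only the variances. The values cannot show how large a change in RNA a difference stands for.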

Other observations

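Promoter words were also counted in the lists of other cell cycle genes, without use of any array value. TTTGAA, the CHR word, was in 19 of 28 windows of kinetochore, spindle and checkpoint genes and in 11 of 19 of mitotic exit, condensation and cytokinesis genes, against 17.9% of all promoter windows. It was in 3 of 28 windows of DNA synthesis genes and 3 of 17 of brakes of the cycle. An E2F-type word was in 7 of 28 windows of DNA synthesis genes, 5 of 14 of G1 genes and 1 of 28 of kinetochore genes, against 2.26% of all. Origin licensing genes held both kinds, an E2F-type word in 3 of 12 windows and TTTGAA in 5 of 12.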
